A study of Mus musculus with 6 samples.

Results

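The genes examined were 10 genes of the pluripotency network, Pou5f1, Sox2, Nanog, Klf4, Esrrb, Zfp42, Sall4, Tdgf1, Dppa4 and Utf1, and the RBPJ occupancy sites around them in F9 cells. They are 10 of 22380 protein-coding genes of the GENCODE vM1 annotation of mm9. A peak was assigned to a gene when its center lay inside the gene or within 25 kb of either end, which gave 21 of the 5206 peaks of asynchronous cells and 6 of the 3227 peaks of mitotic cells. The rule names the genes and uses no peak score.

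F9 is a mouse embryonal carcinoma line derived from a testicular teratoma. RBPJ-bound DNA was immunoprecipitated with a custom rabbit antibody and sequenced from asynchronous F9 cells, which the labels describe as 95% interphase and 5% mitotic, and from mitotic F9 cells, which were arrested with 1 µg/ml nocodazole for 4 hours and washed off the dish. The comparison of the populations asked which sites RBPJ occupies on interphase and on mitotic chromatin. The series has 6 libraries, of which the first immunoprecipitation of each population is represented here by a peak list, so there is no replicate behind any value. The second immunoprecipitations and the inputs were not analysed here. Asynchronous peaks are 173 bp wide with scores of 10.1 to 58.3, and mitotic peaks are 203 bp wide with scores of 10.2 to 282.5. The score is the authors' measure of a peak, its unit is not given in the sources used here, and it was read only within a list. The lists hold neither read counts nor expression, so the depth behind a peak and the identity of the cells by their markers could not be examined.

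RBPJ is the DNA-binding protein of the Notch pathway. Without Notch activity it recruits corepressors, and on binding the Notch intracellular domain it recruits coactivators at the same sites. OCT4 (encoded by Pou5f1), SOX2 and NANOG are the core transcription factors that hold embryonic stem and embryonal carcinoma cells in an undifferentiated state. Many of their target sites carry a composite SOX-OCT motif, and KLF4 and ESRRB bind alongside them in the same network.

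The DNA under the peaks was searched on both strands of mm9 for the letters of 6 motifs. These were the RBPJ motif (TTCCCACA or TTCCCACG), the SOX-OCT motif (ATTGTNATG or TTTGTNATG), the octamer (ATGCAAAT), the ESRRB motif (TCAAGGTCA), the KLF motif (GGGNGTGGC) and a core CTCF consensus of 12 positions with at most 1 mismatch. The shorter core TTCCCA lies within the RBPJ motif and was counted separately, and a SOX-OCT match can share its ATG with an octamer. Sequences are written 5′ to 3′ on the plus strand of the mm9 genome in lower case, with motif letters in capitals, so that a match to the minus strand appears as its reverse complement.

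The 3 peaks around the members that held an RBPJ motif are shown first because they carry the sequence that RBPJ itself recognizes. In the Pou5f1 peak the earlier capitals are an ESRRB motif and the later ones the RBPJ motif. In the 3′ Esrrb peak the capitals are the RBPJ motif followed by 2 further TTCCCA cores.
Pou5f1 distal upstream peak (chr17:35622813-35622985): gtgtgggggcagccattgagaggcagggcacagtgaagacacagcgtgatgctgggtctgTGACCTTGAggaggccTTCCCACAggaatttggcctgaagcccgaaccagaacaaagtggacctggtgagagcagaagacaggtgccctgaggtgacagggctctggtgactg
Esrrb intron 1 peak, 5′ of the pair (chr12:87774945-87775117): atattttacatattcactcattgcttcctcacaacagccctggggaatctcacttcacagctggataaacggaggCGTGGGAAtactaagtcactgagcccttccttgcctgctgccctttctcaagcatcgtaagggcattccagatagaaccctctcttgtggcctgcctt
Esrrb intron 1 peak, 3′ of the pair (chr12:87804010-87804182): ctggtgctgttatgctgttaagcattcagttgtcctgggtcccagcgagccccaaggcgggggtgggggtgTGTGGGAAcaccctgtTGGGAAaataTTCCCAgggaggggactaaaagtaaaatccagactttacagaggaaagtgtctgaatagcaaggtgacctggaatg

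The next peaks had high scores or held motifs of pluripotency factors. Capitals mark the SOX-OCT motif in the Nanog and Pou5f1 peaks, and the octamer and then 2 TTCCCA cores in the Esrrb intron 2 peak. They mark the ESRRB motif and then TTCCCA in the Esrrb intron 3 peak, and 2 TTCCCA cores in the Tdgf1 peak. The Nanog sequence stops at the base before the annotated transcript start.
Nanog promoter peak, bases before the transcript start (chr6:122657397-122657506): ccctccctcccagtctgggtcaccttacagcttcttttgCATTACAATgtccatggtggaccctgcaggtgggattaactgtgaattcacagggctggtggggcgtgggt
Pou5f1 proximal upstream peak (chr17:35640842-35641014): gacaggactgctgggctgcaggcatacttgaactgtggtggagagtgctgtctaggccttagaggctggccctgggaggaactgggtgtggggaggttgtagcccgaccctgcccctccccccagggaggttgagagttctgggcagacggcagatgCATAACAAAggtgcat
Esrrb intron 2 peak (chr12:87819978-87820150): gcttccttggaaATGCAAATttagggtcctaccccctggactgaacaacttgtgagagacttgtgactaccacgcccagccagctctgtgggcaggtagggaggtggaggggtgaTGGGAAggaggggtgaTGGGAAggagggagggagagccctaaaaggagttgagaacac
Esrrb intron 3 peak (chr12:87842617-87842789): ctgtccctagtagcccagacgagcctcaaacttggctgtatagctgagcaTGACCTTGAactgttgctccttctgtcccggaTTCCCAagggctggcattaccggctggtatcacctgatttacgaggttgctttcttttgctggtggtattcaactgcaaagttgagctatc
Tdgf1 upstream peak (chr9:110850707-110850879): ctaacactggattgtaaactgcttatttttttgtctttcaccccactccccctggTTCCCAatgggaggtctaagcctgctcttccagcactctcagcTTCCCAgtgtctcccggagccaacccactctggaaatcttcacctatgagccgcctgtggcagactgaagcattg

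The last sequences are those of the mitotic peak at Klf4 and of the neighboring asynchronous and mitotic peaks downstream of Utf1. Capitals mark TTCCCAC, read on the minus strand, at Klf4 and a CTCF core with no mismatch in the asynchronous Utf1 peak. No motif of the 6 was found in the mitotic Utf1 peak.
Klf4 upstream peak, mitotic list (chr4:55546082-55546284): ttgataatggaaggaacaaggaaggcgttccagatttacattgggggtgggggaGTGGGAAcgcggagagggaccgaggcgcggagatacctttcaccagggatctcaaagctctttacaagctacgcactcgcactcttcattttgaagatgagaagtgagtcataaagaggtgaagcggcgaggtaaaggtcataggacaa
Utf1 downstream peak, asynchronous list (chr7:147135789-147135961): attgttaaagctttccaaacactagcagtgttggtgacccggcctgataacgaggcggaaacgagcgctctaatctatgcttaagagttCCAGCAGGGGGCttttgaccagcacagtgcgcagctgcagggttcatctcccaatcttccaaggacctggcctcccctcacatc
Utf1 distal downstream peak, mitotic list (chr7:147135968-147136170): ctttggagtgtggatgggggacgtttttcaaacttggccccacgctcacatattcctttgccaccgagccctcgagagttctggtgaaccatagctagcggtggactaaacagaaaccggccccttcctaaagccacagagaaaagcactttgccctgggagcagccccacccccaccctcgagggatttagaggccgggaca

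In asynchronous cells 8 of the 10 genes had at least 1 RBPJ peak, against 29.7% of all protein-coding genes. In mitotic cells 3 of the 10 genes, Klf4, Esrrb and Utf1, had a peak, against 18.2% of all protein-coding genes. Asynchronous peaks without a mitotic peak were found at 6 members, Pou5f1, Sox2, Nanog, Zfp42, Sall4 and Tdgf1, and at 18.5% of all genes. Esrrb and Utf1 had peaks of both lists, as did 11.2% of all genes. Klf4 had a mitotic peak only, and Dppa4 had none in either list. The members were chosen with earlier results of these data known, so these shares were set side by side and not tested.

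Several members had clusters of asynchronous peaks. Pou5f1 and Esrrb had 5 peaks each, a number reached by 0.407% of protein-coding genes. Nanog and Zfp42 had 3 each, which with Pou5f1 and Esrrb makes 4 of 10 genes with at least 3 peaks, against 3.57% of all genes. Both of these count thresholds were set after the counts were seen. Per megabase of window, the members had 28.76 asynchronous and 8.217 mitotic peaks, and all protein-coding genes had 3.154 and 1.829. Esrrb is a long gene of 160512 bp. Without its window the members still had 30.79 asynchronous peaks per megabase, from 16 peaks, whereas the mitotic density was 5.773, from 3 peaks.

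**Figure D1:**
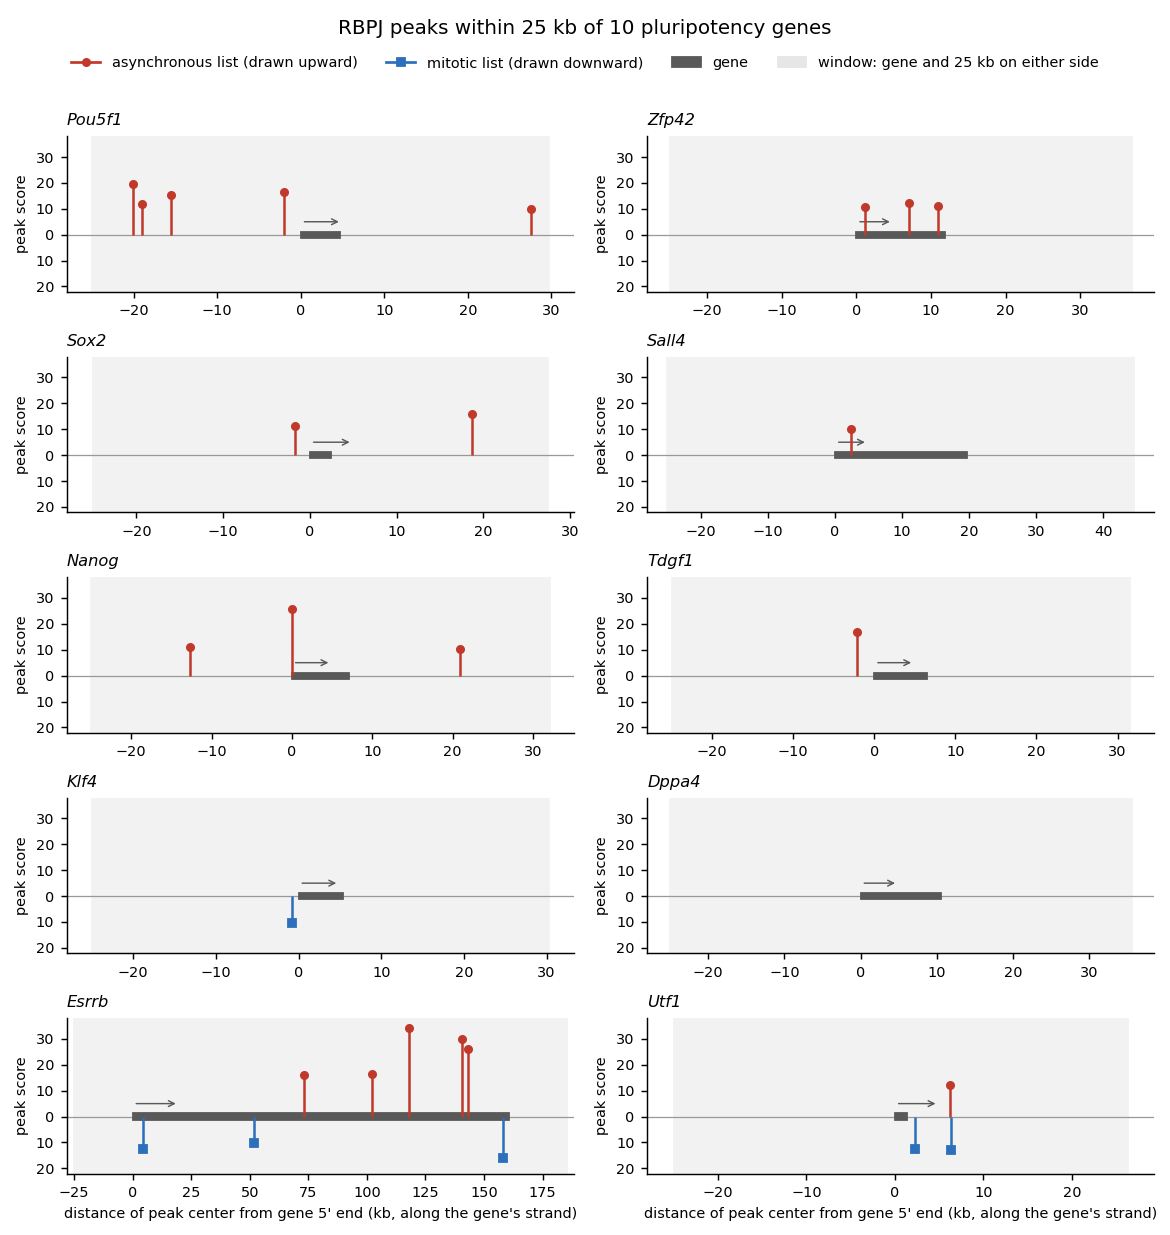
Position (x axis, kb from the gene's 5′ end along its strand) and score (y axis) of every asynchronous peak, drawn upward, and mitotic peak, drawn downward, within 25 kb of each gene. Pou5f1 and Esrrb have 5 asynchronous peaks each, mitotic peaks occur only at Klf4, Esrrb and Utf1, and the panel of Dppa4 is empty.

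Positions are given from the 5′ end of the gene along its strand, with negative values upstream. Pou5f1 (ENSMUSG00000024406.9, chr17:35642982-35647721, plus strand) encodes the POU-domain factor OCT4. It had 4 asynchronous peaks upstream, at -20083 bp with a score of 19.4 (rank 257 of the list), at -19076 bp with 11.8 (rank 2408), at -15547 bp with 15.2 (rank 825) and at -2054 bp with 16.5 (rank 562). The highest of the 4 was thus the most distal, and it was the Pou5f1 peak that held an RBPJ motif. Its TTCCCACA lay on the plus strand -6.5 bp from the peak center, and the ESRRB motif lay at -22 bp on the minus strand. The peak at -2054 bp was the closest to the gene and held a SOX-OCT motif toward its 3′ edge, at 75.0 bp from its center. The remaining peak, with a score of 10.1, lay 22858 bp beyond the 3′ end inside Psors1c2, a gene of the psoriasis susceptibility region, 433 bp from its transcript start. The most distal pair of upstream peaks was closer to the coding start of the major histocompatibility gene H2-Q10 (15857 and 16864 bp) than to that of Pou5f1. With noncoding transcripts included, the closest start to the peaks at -20083, -19076 and -15547 bp was that of Gm20419, a processed transcript. It lay 5815, 6822 and 10351 bp away. The closest mitotic peak to Pou5f1 was 63435 bp upstream, 414 bp from a transcript start of H2-Q7, with a score of 11.6. H2-Q genes are closely similar copies, and only uniquely aligned reads entered the lists.

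Sox2 (ENSMUSG00000074637.3, chr3:34548927-34551383, plus strand), the SOX-family partner of OCT4, had 2 asynchronous peaks and no mitotic peak. They were at -1693 bp with a score of 11.4 (rank 2807) and 16212 bp beyond the 3′ end with 16.0 (rank 645). Both lay inside Sox2ot, the long noncoding transcript that surrounds Sox2. The downstream peak scored above the list median of 11.8 and held a TTCCCA core, and the upstream peak scored below it and held no motif of those searched. The closest mitotic peak was 731024 bp away.

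Nanog (ENSMUSG00000012396.5, chr6:122657507-122664651, plus strand), a homeodomain factor, had the asynchronous peak closest to an annotated gene start among the members. Its center lay at -24 bp with a score of 25.8 (rank 76), and its sequence held the strict SOX-OCT form ATTGTNATG on the minus strand, -43 bp from the center, overlapped by the shortened octamer ATGCAAA at -48 bp. No RBPJ motif and no TTCCCA core was found in this peak. The other Nanog peaks were low, at -12677 bp with a score of 11 (rank 3278) and 13762 bp beyond the 3′ end with 10.1. The latter lay in a UTR exon of Slc2a3, which encodes the glucose transporter GLUT3, and the former was 1160 bp from the pseudogene Gm10420. No mitotic peak lay in the window, and the closest was 50056 bp beyond the 3′ end with a score of 15.3 (rank 100 of the mitotic list).

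Esrrb (ENSMUSG00000021255.10, chr12:87702067-87862578, plus strand), an orphan nuclear receptor that supports self-renewal, had the highest-scoring peaks of all members in both lists. All 8 of its peaks lay inside the gene. The asynchronous peaks were at 72964 bp (score 16.0, rank 645) and 102029 bp (16.5, rank 562) in intron 1, at 117997 bp (34.2, rank 20) in intron 2, at 140636 bp (30.0, rank 41) in intron 3 and at 143358 bp (26.2, rank 70), where the center was 66 bp from an internal transcript start. The scores thus separated into a 5′ pair, which held RBPJ motifs, and a 3′ trio, which did not. In the pair the motif lay -7.5 and -11.5 bp from the center. In the trio the intron 2 peak held an octamer at -70.5 bp and 2 TTCCCA cores at 31.5 and 47.5 bp. The intron 3 peak held TTCCCA at -1.5 bp and an ESRRB motif at -32.0 bp, and the peak at the internal start held an ESRRB motif at 48.0 bp.

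The mitotic peaks of Esrrb lay elsewhere in the gene. They were centered at 4517 bp (score 12.4, rank 433) and 51650 bp (10.2, rank 1852) in intron 1 and at 158280 bp (16.0, rank 68) in the exon that holds the 3′ UTR. All 3 lay outside the stretch from 72964 to 143358 bp that holds the asynchronous peaks. The shortest distance between centers of the lists in this gene was 14922 bp. The mitotic peak at 4517 bp held an ESRRB motif, at -40.0 bp from its center, and none of the 3 held TTCCCA.

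Klf4 (ENSMUSG00000003032.7, chr4:55540013-55545347, minus strand), a Krüppel-like zinc finger factor, was the member with a mitotic and no asynchronous peak. This peak was at -836 bp with the lowest score of its list, 10.2, which 1376 mitotic peaks share (rank 1852). It held TTCCCAC, 1 letter short of the RBPJ motif, -44.0 bp from its center. The closest asynchronous peak was 45848 bp beyond the 3′ end, with a score of 11.8 (rank 2408).

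Zfp42 (ENSMUSG00000051176.5, chr8:44380422-44392363, minus strand), which encodes the zinc finger protein REX1, a marker of the undifferentiated state, had 3 asynchronous peaks, all inside the gene. They lay at 1148 bp in intron 1 with a score of 10.6 (rank 3824), at 7096 bp in intron 3 with 12.2 (rank 2120) and at 10977 bp in the coding exon with 11 (rank 3278). The intron 3 peak scored above the list median and the other two below it. Both intronic peaks held a TTCCCA core, and the exonic peak held the SOX-OCT form TTTGTNATG at 58.0 bp. The closest mitotic peak was 2055659 bp away.

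Sall4 (ENSMUSG00000027547.11, chr2:168573832-168593443, minus strand), a zinc finger factor that binds together with OCT4, had 1 asynchronous peak in intron 1, at 2406 bp from the 5′ end of the gene and -291 bp from an alternative transcript start. Its score of 10.1 was the lowest of the list and was shared by 749 peaks. None of the motifs was found in it. The closest mitotic peak was 132310 bp beyond the 3′ end.

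Tdgf1 (ENSMUSG00000032494.8, chr9:110842114-110848662, minus strand), which encodes Cripto, the membrane coreceptor of the ligand Nodal, had 1 asynchronous peak at -2131 bp with a score of 16.9 (rank 501). Among the members with 1 asynchronous peak, Sall4, Tdgf1 and Utf1, it ranked highest. It held 2 TTCCCA cores, at -28.5 and 14.5 bp from its center. The closest mitotic peak was 551174 bp upstream.

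Utf1 (ENSMUSG00000047751.8, chr7:147129688-147131011, plus strand), a chromatin-associated factor of undifferentiated cells, had peaks of both lists, all downstream. The asynchronous peak lay 4864 bp beyond the 3′ end with a score of 12.2 (rank 2120). The mitotic peaks lay 930 bp beyond it with 12.4 (rank 433) and 5058 bp beyond it with 13.1 (rank 298). The asynchronous and the distal mitotic peak were neighbors, with centers 194 bp apart, and did not overlap. Both were close to the start of the long intergenic noncoding RNA Gm16201, at 420 and 226 bp. The CTCF core of the asynchronous peak lay 8.5 bp from its center.

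Dppa4 (ENSMUSG00000058550.7, chr16:48283848-48294405, plus strand), a chromatin-associated protein of pluripotent cells, lay far from any peak. The closest asynchronous peak was 2558884 bp upstream (score 13.1) and the closest mitotic peak 3670968 bp upstream (score 10.2).

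The scores of the asynchronous peaks around the members ranged from 10.1 to 34.2 with a median of 15.2, whereas the median of the list was 11.8. Of these 21 peaks, 4 ranked among the top 100 of the list, 3 of them at Esrrb and 1 at Nanog. The highest-scoring 25% of the list by rank, which with ties is 26.51% of it, held 11 of the 21, from Pou5f1, Sox2, Nanog, Esrrb and Tdgf1. At the other end, 6 of the 21 were within 10% of the lowest score, a range that holds 37.05% of the list. The 6 mitotic peaks scored from 10.2 to 16.0 with a median of 12.4, against a list median of 10.9. The Esrrb peak of rank 68 was among the top 100 of the mitotic list, and 2 of the 6 were within 10% of its lowest score, as were 65.97% of all mitotic peaks.

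**Figure D2:**
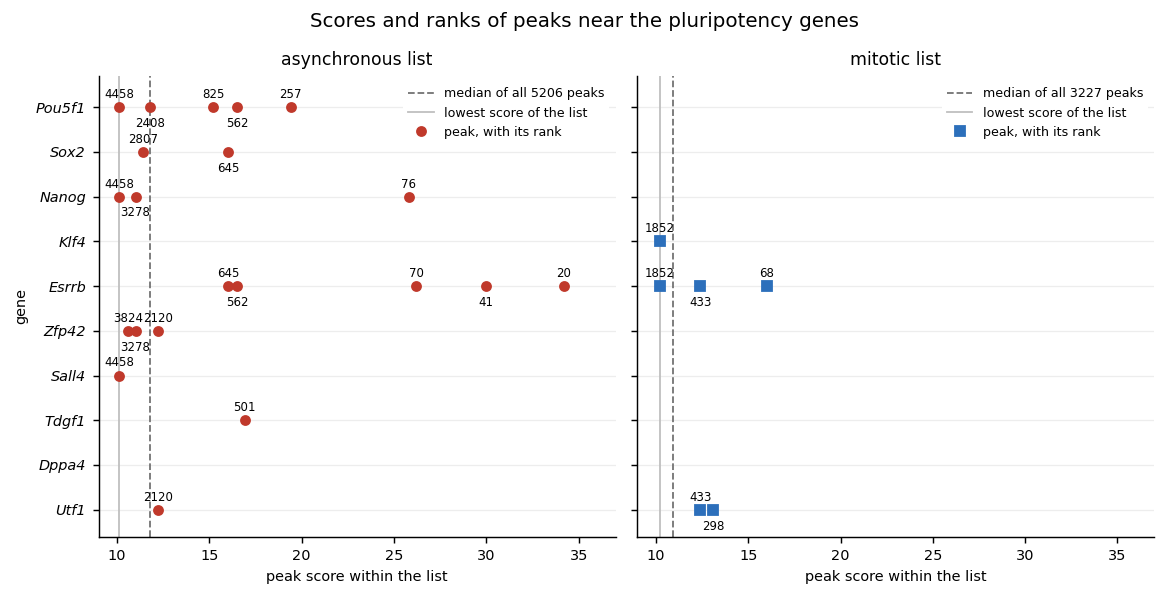
Score (x axis) of each peak within 25 kb of each gene (y axis), with its rank in the list beside the point, for the asynchronous list at the left and the mitotic list at the right. The dashed line is the median of the list (11.8 and 10.9) and the gray line its lowest score, and the asynchronous peaks farthest to the right are those of Esrrb and Nanog.

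No asynchronous peak around the members overlapped a mitotic peak. This was 0 of 21 (exact Clopper-Pearson 95% interval 0.0 to 16.11%, and a share of up to 14.29% allowed by 3 counts) against 7.74% of the whole asynchronous list. From the mitotic side it was 0 of 6 (0.0 to 45.93%, up to 50% by 3 counts), against 12.5% of the whole mitotic list. The intervals cover counting error only and treat peaks of the same gene as independent, although Pou5f1 and Esrrb hold 5 asynchronous peaks each. At these numbers a share like that of the whole list was not distinguishable from none. These overlap shares compare lists called separately, so a peak without an overlap may still have signal in the other population. The paper instead compared read enrichment between the populations. By that measure it classed most asynchronous sites as common to mitotic cells. The overlap is a different measure and does not give the share of sites retained in mitosis. When centers within 250 bp were counted as shared, 1 asynchronous peak, at Utf1, was shared, and so were 8.16% of all asynchronous peaks. From each asynchronous peak around the members, the closest mitotic center was 0.194 to 2066 kb away with a median of 57.22 kb, and over the whole list the median was 73.4 kb. From the 6 mitotic peaks the closest asynchronous center was 0.194 to 68.45 kb away with a median of 18.12 kb, against 34.7 kb over the list. A mitotic center lay within 25 kb of 4 of the 21 asynchronous peaks, against 31.21% of the whole asynchronous list. An asynchronous center lay within 25 kb of 4 of the 6 mitotic peaks, against 43.76% of the mitotic list. All of these member peaks were at Esrrb or Utf1.

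Most asynchronous peaks of the members were away from promoters. Of the 21, 3 lay within 1 kb of an annotated transcript start of their own gene, at Nanog, Esrrb and Sall4, and of the 6 mitotic peaks 1 did, at Klf4. Over the lists, 39.4% of the asynchronous and 30.3% of the mitotic peaks within 25 kb of protein-coding genes lay within 1 kb of some coding transcript start. Counted in the same way, with the start of any coding gene, 4 of the 21 asynchronous peaks lay within 1 kb, since the Pou5f1 peak in Psors1c2 was added, and 1 of the 6 mitotic peaks. With the window narrowed to 5 kb on either side, 80.0% of the members and 17.7% of all protein-coding genes had an asynchronous peak.

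**Figure D3:**
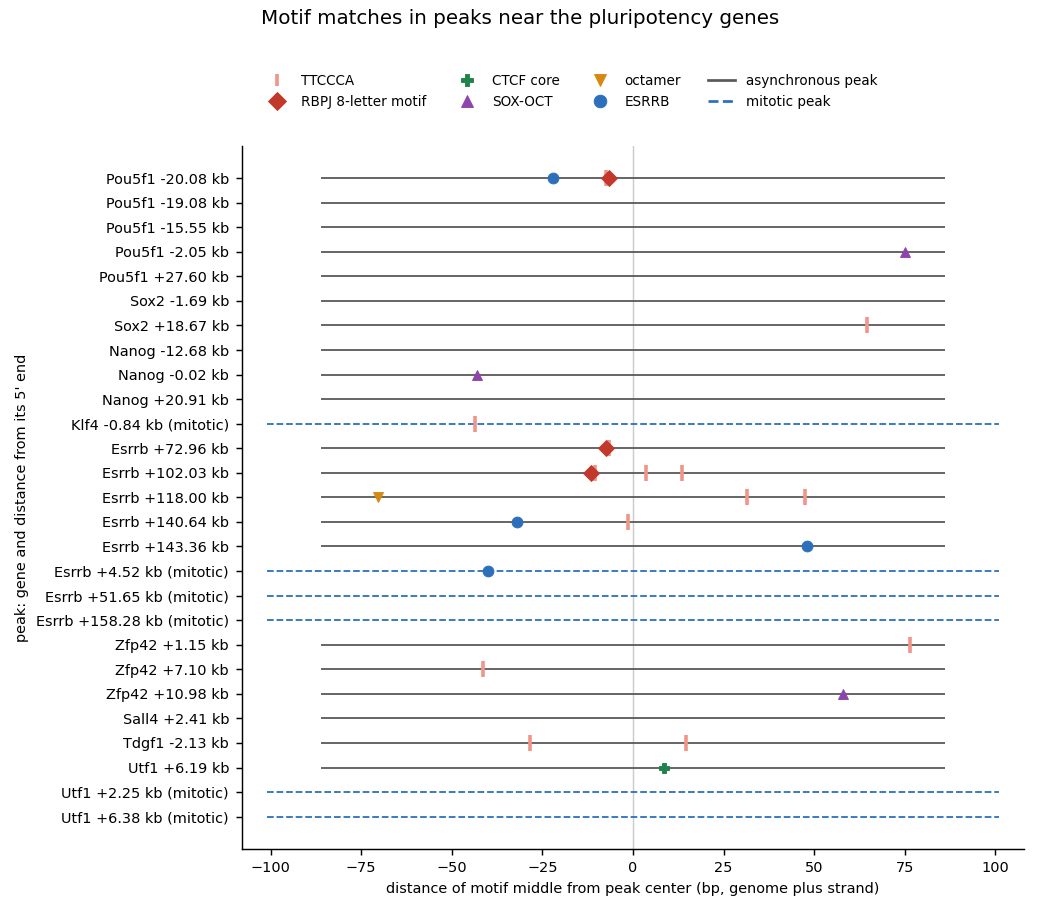
Positions of motif matches (symbols) relative to the center of each peak (x axis, bp on the genome plus strand), with 1 horizontal line per peak named by gene and distance from its 5′ end (y axis, solid for asynchronous, dashed for mitotic). The 3 RBPJ motifs lie close to the center, at -6.5, -7.5 and -11.5 bp, and the SOX-OCT matches lie farther out, at -43, 58.0 and 75.0 bp.

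An RBPJ motif was found in 3 of the 21 asynchronous peaks, and in 9.09% of the list (95% interval 8.318 to 9.899%) and 1.61% of windows of the same width 2 kb to either side of the peaks. TTCCCA was found in 9 of the 21, in 35.9% of the list and in 16.9% of the flanking windows. The CTCF core, the only motif for which a mismatch was allowed, was in 18% of the list (17.0 to 19.11%) and in 1 of the 21, the Utf1 peak. With no mismatch it was in 6.67% of the list and in the same peak. SOX-OCT motifs were in 3 of the 21, against 1.02% of the list (0.7635 to 1.33%) and 1.07% of flanks, and 2 of the 3 were of the TTTGTNATG form. ESRRB motifs were also in 3 of the 21, 1 at Pou5f1 and 2 at Esrrb, against 1.36% of the list (1.067 to 1.717%) and 0.634% of flanks. An octamer was in 1 of the 21, against 1.09% of the list, and KLF motifs were in none, against 4.26%. In the 6 mitotic peaks the matches were 1 ESRRB motif, at Esrrb, against 0.806% of the mitotic list, and 1 TTCCCA, at Klf4, against 25.1%. The RBPJ motif was in none of the 6 and in 3.53% of the mitotic list. A match gives the letters in the reference genome and is not a measurement of binding by the factor.

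Other genes of the network were taken from a list of 30, among them Klf5, Stat3 and Lefty2. Of these, 20 had an asynchronous peak (66.67%) and 12 a mitotic peak (40.0%), and 4 had at least 3 asynchronous peaks. The highest asynchronous scores were 20.3 at Klf5, a Krüppel-like factor, 19.0 at Stat3, the effector of LIF signaling, 17.3 at L1td1, an RNA-binding protein, 16.9 at Lefty2, a Nodal antagonist, and 16.0 at Tfcp2l1, a transcription factor of the naive state. The highest Nanog peak and 3 Esrrb peaks lay above the highest score of this list. Its highest mitotic scores were 37.9 (rank 8) at Jarid2, a component of Polycomb complexes, 13.8 at Klf5, and 11.6 at each of Dppa3, Gdf3, Lefty2, Mycn and Stat3, where the peak of Dppa3 and Gdf3 was the same. Of the 34 asynchronous and 14 mitotic peaks around these genes, 1 pair overlapped. Over the whole lists, 7.74% of asynchronous and 12.5% of mitotic peaks overlapped a peak of the other list.

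A list of 25 genes that F9 cells express on differentiation to endoderm served as a comparison. An asynchronous peak was found at 8 of the 25 (32.0%) and a mitotic peak at 8 (32.0%), and no gene had 3 asynchronous peaks. None of the 10 asynchronous and 9 mitotic peaks around them overlapped a peak of the other list. The highest asynchronous scores were 25.8 at Col4a1, 14.8 at Krt8, 12.2 at Nid1, and 11.8 at both Col4a2 and Sox7, genes of basement membrane, keratin and endodermal transcription. The highest mitotic scores were 14.6 at Krt8, 13.8 at Lamc1, 12.4 at Plat, 11.6 at Col4a2. The other genes with a mitotic peak, Col4a1, Gata4, Gata6 and Lamb1, were at 10.2, the lowest score of the list. Per megabase of window, asynchronous peaks numbered 14.45 for the 30 pluripotency genes and 3.567 for the endoderm genes, and mitotic peaks 5.95 and 3.211.

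At 5 kb, 80.0% of the members, 53.33% of the other pluripotency genes, 20% of the endoderm genes and 17.7% of all genes had an asynchronous peak. At 100 kb the shares were 90.0%, 80.0%, 56.0% and 49.09%, with Klf4 added to the members with a peak and Dppa4 still without. In mitotic cells the 10 genes had 30.0% at every window from 1 to 50 kb and 50% at 100 kb, and the other pluripotency genes went from 30.0% at 1 kb to 60.0% at 100 kb.

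**Figure D4:**
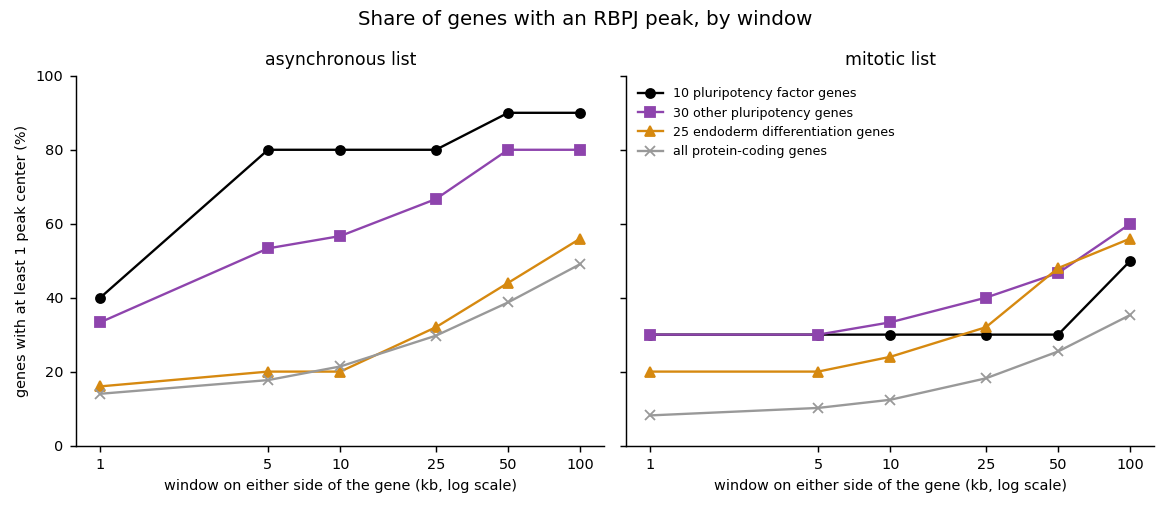
Share of genes with at least 1 peak center (y axis, %) inside the gene or within a window on either side (x axis, kb, log scale) for 4 sets of genes, asynchronous list at the left and mitotic at the right. In the asynchronous list the 10 pluripotency factor genes stand at 80.0% from 5 to 25 kb, above the other sets. In the mitotic list they stand at 30.0% up to 50 kb, at or below the 30 other pluripotency genes. All protein-coding genes rise there from 8.15% at 1 kb to 25.45% at 50 kb.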

How the data were processed

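ChIP-seq was performed with an anti-RBPJ antibody. Per the labels and methods, the authors aligned reads to mm9 with Bowtie 0.12.7, keeping unique alignments with up to 2 mismatches, used HOMER to call peaks over input (false discovery rate 0.001, Poisson p 0.0001) and applied a 1 RPM cutoff. The deposited score of each peak was used only within its list, and ties took the lowest rank. Lists were per sample and not pooled.

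Peak centers were assigned to GENCODE vM1 genes (window 25 kb). Distances run from the gene's 5′ end or the closest transcript start, and a pair of peaks with at least 1 bp in common counted as shared. Motifs were counted in peaks and in equal windows 2 kb to either side. Sequences came from the mm9 genome. Python 3.11.15, pandas 2.3.3, numpy 2.4.6, scipy 1.17.1, pysam 0.24.0 and matplotlib 3.10.9 were used. The code that finds peak overlaps and motif matches was tested on simulated data. Tfcp2l1 was matched through an older symbol, and the longer of the models of Dab2 was used. All 10 genes were named with all their peaks, together with the 5 genes of each other list with the highest-scoring peak per population, genes tied with the last of them, added after their values were seen, and the gene whose transcript start is closest to a peak. The members and gene lists were chosen with earlier results of these data known. Without replicates, no test was run. Alternatives were other windows, score cutoffs, sharing distances and motif forms.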

Additional observations from a re-analysis of the deposited data

How the results depend on the processing

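Under the alternatives, 62 recomputed values stayed within the limit set (1.5 times for counts) and 32 moved. Counts, shares and densities have no direction that could reverse. Some of the values that stayed were 0 throughout, such as the mitotic peaks near members with a SOX-OCT motif. With the highest-scoring 25% of peaks, the numbers of genes with an asynchronous peak were 5 members, 7 other pluripotency genes and 2 endoderm genes, with 9.57% of all genes and 11 peaks near members, and a mitotic peak remained at 5 other pluripotency genes, 3 endoderm genes and 5.8% of all genes. With peaks at or above the median score, 5 endoderm genes and 18.5% of all genes had an asynchronous peak, and 4 endoderm genes and 11.7% of all genes a mitotic one. A 10 kb window left 5 endoderm genes with an asynchronous peak. A 100 kb window gave 36 asynchronous and 14 mitotic peaks near members, 5 members with a mitotic peak, 14 endoderm genes in each list, and 49.1% and 35.3% of all genes. Centers within 250 bp, or within 1 kb, gave 1 shared peak in each list, at Utf1. TTCCCA as the RBPJ motif gave 9 asynchronous and 1 mitotic peak, TTCCCAC 1 mitotic peak, a CTCF core with 2 mismatches 3 asynchronous and 2 mitotic peaks, ATTGTNATG alone 1 asynchronous peak, ATGCAAA 2 asynchronous peaks, and distance to the gene's 5′ end alone 1 asynchronous peak within 1 kb. The densities without the Esrrb window were added after the data were seen.

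No paired analysis was possible because each population has 1 peak list, and for the same reason no replicate could be left out. Peaks below the authors' cutoffs are not in the lists, and signal under them was not examined. The mitotic list has fewer peaks than the asynchronous list, and with 1 list each, depth and cell population cannot be told apart. Of the 21 asynchronous peaks 6, and of the 6 mitotic peaks 2, had scores less than 10% above their list's minimum.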

Other observations

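Between 25 and 100 kb from the 10 genes, Nanog had 6 further asynchronous and 3 further mitotic peaks, Pou5f1 had 2 and 3, and Esrrb had 2 and 2. The asynchronous peak at chr6:122714475-122714647 (score 16.5, rank 562, 57054 bp from the 5′ end of Nanog) overlapped the mitotic peak at chr6:122714606-122714808 (score 15.3, rank 100, 57200 bp). Among the peaks between 25 and 100 kb this was the overlapping pair, on the side of Nanog toward Slc2a3. A higher asynchronous peak at 63222 bp (score 22.8, rank 134) held an RBPJ motif, and another at -37928 bp (19.8, rank 233) held a CTCF core. Upstream of Pou5f1, the 2 asynchronous and 3 mitotic peaks of the wider window had a histocompatibility gene, H2-Q6 or H2-Q7, as the closest transcript start. Around Klf4, 2 asynchronous and no mitotic peaks were added, with scores of 11.4 and 11.8. Zfp42, Tdgf1 and Utf1 each gained 1 asynchronous and no mitotic peak. That of Zfp42 lay at -26709 bp, just outside the window, with a score of 16.9 (rank 501). It scored above every Zfp42 peak inside the window, where the highest was 12.2. Sox2, Sall4 and Dppa4 gained none in either list.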
